A study of Mus musculus with 16 samples.

Results

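Hes1, Hes5, Hes6, Hey1, Hey2, Heyl and Nrarp are 7 genes of the Notch response, and their transcript levels were followed in differentiating neural stem cells (NSCs) of the mouse cortex in which the long noncoding RNA RUS, annotated as Gm20754, was targeted by RNA interference. The 7 genes were taken by name, and all 7 were among the 55471 lines of the deposited expression tables. The cells were NSCs of the C57BL/6 strain from pooled embryonic cortices (E15-16), and they were transduced with a lentivirus that carried either a scrambled shRNA (shRNA CON) or 1 shRNA against RUS (shRNA RUS). PolyA RNA was sequenced from bulk cultures on day 5 and day 7 after seeding, with 4 libraries for each shRNA on each day and 16 in all. Day 5 was the day on which the growth medium with FGF2 was replaced by differentiation medium. All 4 groups thus carried a lentiviral shRNA, and the comparison rests on 1 RUS shRNA. Nothing in the labels says that the 4 libraries of a group came from separate cultures or embryos, so the p-values measure the spread between these libraries, which may be technical.

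Notch signalling works between neighbouring cells. A ligand of the Delta or Jagged family on one cell triggers cleavage of the Notch receptor on the next, and the freed intracellular domain enters the nucleus, joins the DNA-binding protein Rbpj and a Mastermind coactivator, and switches on genes that Rbpj alone keeps repressed. Hes1 and Hes5 are the classic targets in the embryonic cortex. They are basic helix-loop-helix (bHLH) repressors that hold radial glia in the progenitor state by repressing proneural genes such as Neurog2. Hey1, Hey2 and Heyl are related bHLH repressors and Notch targets in vessels and heart as well as in the nervous system. Hes6 is the exception of the family, since it counteracts Hes1 and is active in cells that have begun to differentiate. Nrarp is no transcription factor but a small ankyrin repeat protein that is induced by Notch and feeds back on the Notch intracellular domain.

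The genes lie on 6 chromosomes of the GRCm38 assembly. Hes1 occupies chr16:30064384-30067796 on the plus strand, Hes6 chr1:91411483-91414038 on the minus strand, Hey1 chr3:8663359-8667256 on the minus strand and Hey2 chr10:30832359-30842801 on the minus strand. Hes5 at chr4:154960923-154962371 and Heyl at chr4:123233556-123249875 share a chromosome and the plus strand. Nrarp lies at chr2:25180758-25183339 on the plus strand. A transcript on the opposite strand overlaps Hes5 (Gm20421) and another overlaps Nrarp (Gm38287). Whether the libraries kept the strand is not given in the sources used here, so reads of these pairs may have been shared. Gm20421 averaged 0.777 scaled TPM in shRNA CON on day 5 against 9.73 for Hes5, and Gm38287 was listed at 0 in all 8 day 7 libraries and at 0 to 5.39 scaled TPM on day 5.

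RefSeq promoter windows, given for the GRCm38.p6 assembly, were at hand for Hes5, Hes6, Hey2 and Nrarp, that is for 4 of the 7 genes. The 3 windows printed here show the contrast between promoters with and without the core of the Rbpj recognition site. Each runs 5′ to 3′ on the strand of its gene and ends at the base before the transcription start. Capitals mark the Rbpj core, TGGGAA or its complement, in Hes5 (chr4:154960673-154960922) and in Hey2 (chr10:30842802-30843033), and the E-box CANNTG, the site of proneural bHLH proteins, in Hes6 (chr1:91414039-91414288).
Hes5: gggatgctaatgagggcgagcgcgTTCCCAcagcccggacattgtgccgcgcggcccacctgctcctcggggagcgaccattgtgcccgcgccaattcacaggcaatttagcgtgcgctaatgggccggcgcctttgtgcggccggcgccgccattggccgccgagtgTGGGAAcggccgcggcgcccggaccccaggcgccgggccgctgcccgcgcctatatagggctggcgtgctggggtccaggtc
Hey2: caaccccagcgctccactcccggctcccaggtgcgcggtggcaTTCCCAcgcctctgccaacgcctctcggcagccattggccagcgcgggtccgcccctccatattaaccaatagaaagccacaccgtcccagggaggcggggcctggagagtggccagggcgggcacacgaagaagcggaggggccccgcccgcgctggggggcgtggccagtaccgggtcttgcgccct
Hes6: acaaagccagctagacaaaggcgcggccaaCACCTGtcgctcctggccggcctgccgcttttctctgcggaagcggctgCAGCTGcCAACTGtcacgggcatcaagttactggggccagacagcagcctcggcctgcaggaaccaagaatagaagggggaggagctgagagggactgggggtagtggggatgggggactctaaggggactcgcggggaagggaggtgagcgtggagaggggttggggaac

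Hes5 held 2 Rbpj cores, which began 226 and 82 bases before the start and face in opposite directions, and Hey2 held 1, 189 bases before the start. Hes6 held no Rbpj core but 3 E-boxes, at 220, 171 and 164 bases before the start, and 1 class C site (CACGNG), a sequence bound by Hes and Hey proteins, at 157. Hes5 and Hey2 held 1 E-box each, at 194 and 205 bases before the start, left in lower case above. The Nrarp window held no Rbpj core either. It held 1 class C site, CACGTG, 108 bases before the start, which is an E-box at the same time, and 2 N-boxes (CACNAG), another Hes site. Searched on both strands, the Rbpj core occurred in 21.6%, the N-box in 36.7%, the class C site in 23.5% and the E-box in 66.2% of the 32851 windows of 250 bases before a mouse gene start. These matches describe the letters in short windows and say nothing of binding elsewhere.

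**Figure D1:**
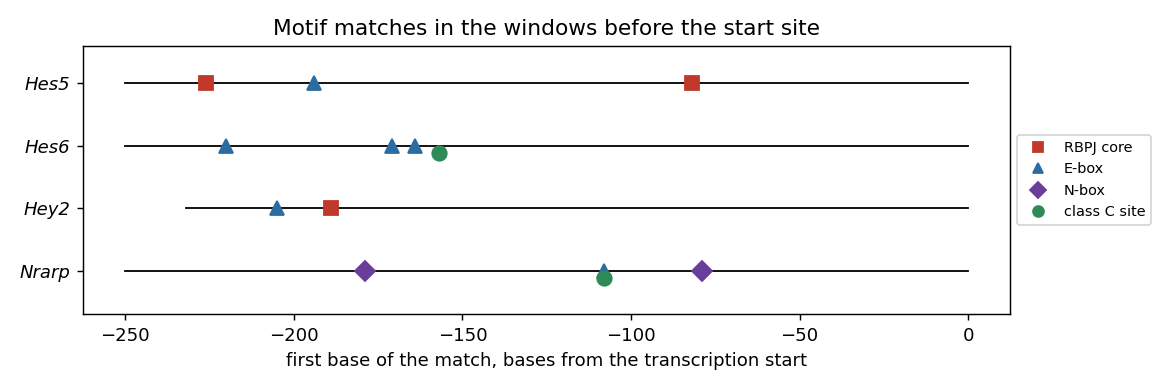
Motif matches in the windows before the transcription start of Hes5, Hes6, Hey2 and Nrarp. The horizontal axis gives the first base of each match in bases from the start, lines show the window searched (232 bases for Hey2, 250 for the others), squares are Rbpj cores, triangles E-boxes, diamonds N-boxes and circles class C sites; squares appear for Hes5 and Hey2, and triangles are most frequent for Hes6.

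Expression is given as TPM, the number of transcripts of a gene per fixed number of transcripts in the library, a unit corrected for transcript length, so that levels can be compared between genes. Values called scaled TPM were divided by a library factor, which ranged from 0.845 to 1.10 over the 16 libraries. The read depth behind the TPM values is unknown. Genes of the labelled cell type were expressed, some of which astrocytes use as well, and so were astrocyte markers: the NSC transcription factor Sox2 lay between 132 and 191 scaled TPM in the 16 libraries, and the radial glia transporter Slc1a3 between 588 and 923, while the astrocyte filament gene Gfap lay between 594 and 2921 and the water channel Aqp4 between 288 and 416. The targeted transcript was low. Gm20754 averaged 0.173 ± 0.054 TPM in shRNA CON and 0.123 ± 0.141 TPM in shRNA RUS on day 5 (SD, n = 4 each, exact two-sided permutation test, p = 0.543), and 0.555 ± 0.213 and 0.240 ± 0.263 TPM on day 7 (exact p = 0.143, where 0.0286 is the smallest p that 4 libraries against 4 can give). The groups overlapped on both days, so the knockdown was not resolved by these libraries, and the comparisons below are between the labelled shRNAs.

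Hes6 and Hey1 were the most abundant members in every group, and Heyl was the least abundant. In shRNA CON on day 5, Hes6 averaged 83.7 ± 10.5 and Hey1 43.4 ± 1.7 scaled TPM (SD, n = 4), followed by Hes1 with 16.3 ± 3.1, Nrarp with 11.4 ± 3.1, Hes5 with 9.73 ± 1.75 and Hey2 with 3.69 ± 0.16. In this order the ranges of Hes1 and Nrarp and those of Nrarp and Hes5 overlapped, and those of the other neighbours did not. In shRNA RUS on day 5, Hes1 fell from the third to the fifth place, behind Nrarp and Hey2, and its range of 5.14 to 7.37 scaled TPM lay within that of Hes5, 4.26 to 8.84. It was below the range of Hey2, 7.72 to 9.02, which lay within that of Nrarp. On day 7 Hes6 and Hey1 overlapped in both shRNA groups, at 66.1 to 78.4 and 66.3 to 71.4 scaled TPM in shRNA CON and at 53.1 to 61.8 and 51.9 to 55.0 in shRNA RUS. Hes5 and Nrarp overlapped in shRNA CON on that day, and Nrarp, Hey2 and Hes5 did in shRNA RUS.

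**Figure D2:**
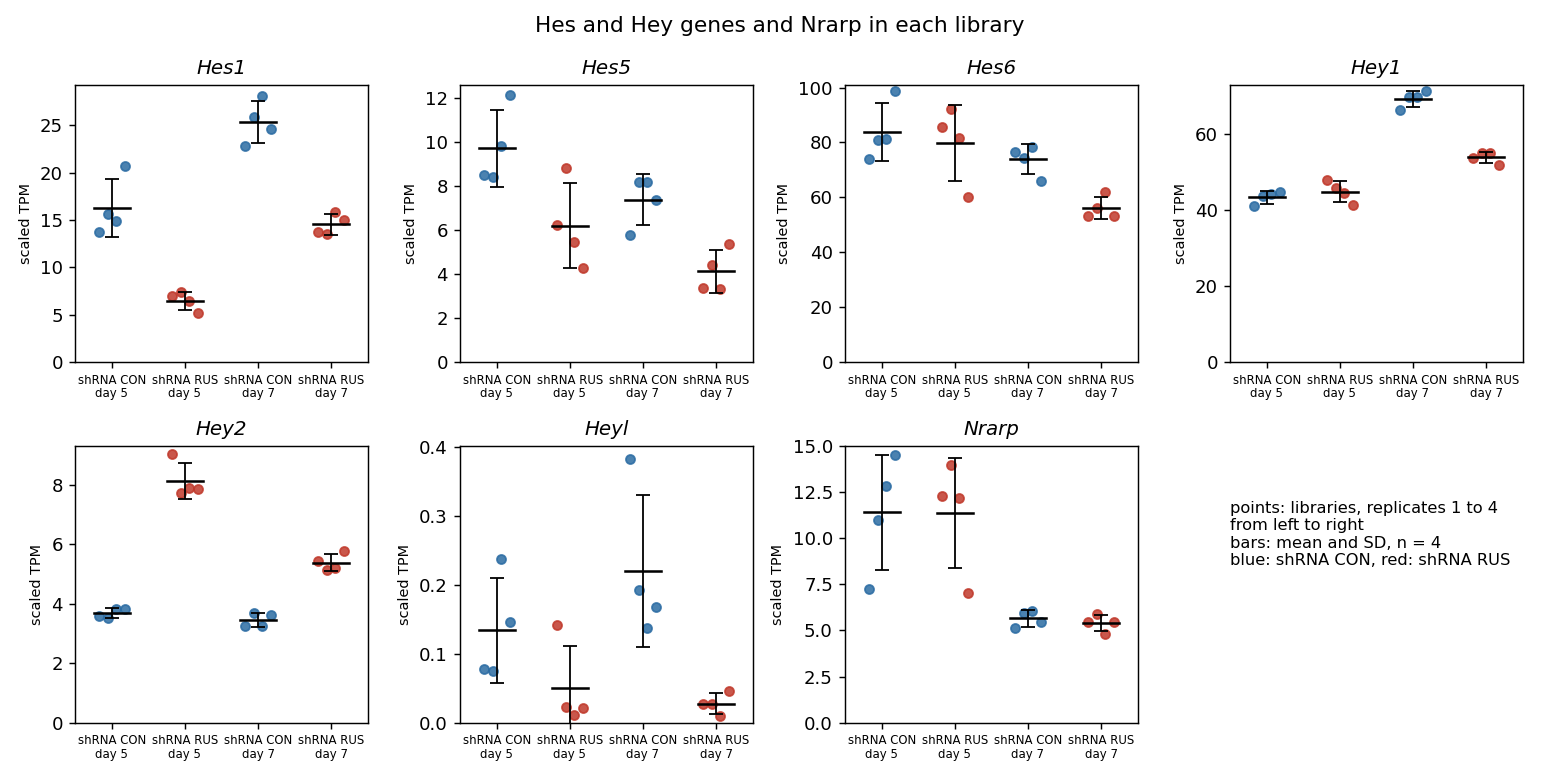
Scaled TPM of the 7 genes in each of the 16 libraries, 1 panel per gene with its own vertical axis starting at 0. Points are libraries in the order of replicates 1 to 4, horizontal bars are means and whiskers SD (n = 4); Hes1 and Hey2 separate shRNA CON (blue) from shRNA RUS (red) on both days in opposite directions, and the Nrarp points overlap on each day.

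Hes1, the repressor that oscillates in cycling progenitors, was lower in shRNA RUS on both days. On day 5 the shRNA CON libraries 1 to 4 held 13.69, 15.67, 14.95 and 20.71 scaled TPM, and the shRNA RUS libraries 6.92, 7.37, 6.44 and 5.14. On day 7 the values were 22.9, 25.9, 28.1 and 24.7 in shRNA CON and 13.77, 13.56, 15.88 and 15.01 in shRNA RUS. The groups did not overlap on either day, and every shRNA RUS library on day 5 was below every other library of the series. Expressed as a log2 ratio of shRNA RUS over shRNA CON, the difference was -1.31 (SE 0.15, adjusted p = 2.23e-04, limma with Benjamini-Hochberg adjustment over all genes) on day 5, which left 40.4% of the control level, and -0.78 (SE 0.077, adjusted p = 2.57e-05 by limma) on day 7, which left 58.1%. With TPM as deposited the groups did not overlap either, at 13.95 to 19.87 against 4.77 to 6.31 TPM on day 5.

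Hes5, the other main Notch target of radial glia, was also lower, but its libraries scattered more. The day 5 libraries of shRNA CON held 8.51, 8.40, 9.84 and 12.15 scaled TPM and the shRNA RUS libraries 6.25, 8.84, 5.44 and 4.26. Replicate 2 of shRNA RUS lay above replicates 1 and 2 of shRNA CON, so the groups overlapped on this scale. The log2 ratio was -0.67 (SE 0.21, adjusted p = 0.0357 by limma), or 62.7% of the control. This call was lost in 9 of 19 other settings, among them the omission of replicate 3 or 4 of shRNA CON (-0.66 and -0.56, adjusted p = 0.0791 and 0.0883 by limma) and of replicate 1, 3 or 4 of shRNA RUS (-0.69, -0.63 and -0.51, adjusted p = 0.0671, 0.0881 and 0.0609 by limma). On day 7 the shRNA CON libraries held 5.76, 8.19, 8.20 and 7.37 scaled TPM and the shRNA RUS libraries 3.34, 4.42, 3.34 and 5.38, without overlap. The log2 ratio of -0.83 (SE 0.17, adjusted p = 0.00304 by limma), or 56.3% of the control, was called in all 19 other settings.

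Hes6, the antagonist of Hes1, overlapped between the groups on day 5 and was lower in shRNA RUS on day 7. In the 4 controls of day 5 there were 74.0, 80.8, 81.4 and 98.6 scaled TPM, and in the shRNA RUS libraries 85.5, 92.1, 81.8 and 60.2. Replicate 4 was the highest of the controls and the lowest of the shRNA RUS libraries, while the other 3 shRNA RUS libraries lay above the other 3 controls. The log2 ratio was -0.076 (SE 0.14, 95% interval -0.38 to 0.23, adjusted p = 0.710 by limma), and it was 0.057 without replicate 4 of shRNA RUS. On day 7 the values were 76.7, 74.5, 78.4 and 66.1 in shRNA CON and 53.1, 56.0, 61.8 and 53.3 in shRNA RUS, with a log2 ratio of -0.38 (SE 0.070, adjusted p = 0.00132 by limma), or 76.7% of the control. All 4 shRNA RUS libraries were below the lowest control.

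Hey1, the most abundant of the Hey genes, likewise overlapped on day 5 and was lower in shRNA RUS on day 7. Control libraries of day 5 held 41.0, 43.7, 44.1 and 44.8 scaled TPM and the shRNA RUS libraries 47.9, 45.7, 44.6 and 41.4. These groups overlapped, and the log2 ratio was 0.050 (SE 0.060, 95% interval -0.085 to 0.18, adjusted p = 0.560 by limma). The sign depended on the scaling, since TPM as deposited were 41.16 to 42.95 in shRNA CON and 38.40 to 40.45 in shRNA RUS, with a log2 ratio of -0.11 (adjusted p = 0.125 by limma). By day 7 the libraries stood at 66.3, 69.8, 69.7 and 71.4 in shRNA CON and 53.7, 55.0, 55.0 and 51.9 in shRNA RUS. Its log2 ratio of -0.35 had the smallest error of the 7 genes on that day (SE 0.037, adjusted p = 4.04e-05 by limma) and left 78.6% of the control.

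Hey2 was the only member that rose in shRNA RUS, and it rose on both days. On day 5 the shRNA CON libraries held 3.57, 3.52, 3.83 and 3.83 scaled TPM and the shRNA RUS libraries 9.02, 7.72, 7.89 and 7.87. The day 7 libraries held 3.25, 3.67, 3.24 and 3.61 in shRNA CON and 5.42, 5.13, 5.19 and 5.77 in shRNA RUS. All 8 shRNA RUS libraries lay above all 8 shRNA CON libraries. The log2 ratios were 1.12 (SE 0.082, adjusted p = 3.08e-05 by limma), or 217% of the control, on day 5 and 0.64 (SE 0.077, adjusted p = 9.11e-05 by limma), or 156%, on day 7, and both were called in all 19 other settings.

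Heyl was listed between 0.01 and 0.41 TPM, the lowest of the members, and the number of reads behind these values is unknown. The day 5 controls were listed at 0.08, 0.07, 0.23 and 0.14 TPM and the shRNA RUS libraries at 0.12, 0.02, 0.01 and 0.02. The mean of these 8 libraries was below the minimum of 0.1 TPM set for testing, and without that minimum the log2 ratio was -0.63 (SE 0.30, adjusted p = 0.207 by limma). The day 7 libraries were listed at 0.41, 0.21, 0.15 and 0.18 TPM in shRNA CON and 0.03, 0.03, 0.01 and 0.05 TPM in shRNA RUS, without overlap. The log2 ratio on the log2(TPM + 0.1) scale was -1.33 (SE 0.33, adjusted p = 0.00742 by limma). Its size depended on the constant added before taking logs and ran from -2.63 to -0.26 over the 17 other settings, in all of which it was called.

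Nrarp, the feedback regulator, did not pass the test on either day. On day 5 the shRNA CON libraries held 7.26, 10.98, 12.85 and 14.54 scaled TPM and the shRNA RUS libraries 12.3, 14.0, 12.2 and 7.04. Each group spread widely, and the log2 ratio of -0.0032 (SE 0.25, adjusted p = 0.995 by limma) had a 95% interval of -0.58 to 0.57. On day 7 the libraries were close together, at 5.13, 5.97, 6.08 and 5.46 scaled TPM in shRNA CON and 5.44, 5.90, 4.83 and 5.44 in shRNA RUS. The log2 ratio was -0.053 (SE 0.086, adjusted p = 0.645 by limma), and its 95% interval ran from -0.25 to 0.14. Gm38287, which overlaps Nrarp on the other strand, was above 0 in 3 day 5 libraries, replicates 1 and 2 of shRNA CON (5.39 and 1.5 scaled TPM) and replicate 4 of shRNA RUS (3.74), and these were the lowest 3 of the 8 Nrarp values of that day. The sum of both genes ran from 10.8 to 14.5 scaled TPM on day 5, and the part of shared reads in the spread of Nrarp was not tested. As for Hes6, the Nrarp level of replicate 4 on day 5 was the highest of the controls and the lowest of shRNA RUS.

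In counts, 1 of the 6 members tested on day 5 was called higher in shRNA RUS (Hey2) and 2 were called lower (Hes1 and Hes5), while 14.8% of all 22581 genes tested were called higher and 17.9% lower. Higher calls were 45.4% of all calls on that day, and 22.7% with TPM as deposited, where the median over all genes moved from -0.061 to -0.21. On day 7, 1 of 7 was called higher (Hey2) and 5 lower (Hes1, Hes5, Hes6, Hey1 and Heyl), against 23.4% and 25.8% of the 24606 genes tested. The median log2 ratio of the members was -0.04 on day 5 and -0.38 on day 7, beside medians of -0.06 and -0.03 over all genes. In scaled TPM, groups did not overlap on day 5 for Hes1 and Hey2, and on day 7 for all members except Nrarp, and such a separation was seen for 32.8% of all tested genes on day 5 and for 47.0% on day 7. In TPM as deposited, Hes5 (7.92 to 11.66 in shRNA CON against 3.95 to 7.56) and Hey1 separated on day 5 as well, both lower in shRNA RUS, while on day 7 the members that separated were the same as in scaled TPM. On that scale 33.5% of all tested genes separated on day 5 and 46.5% on day 7. In bulk RNA a lower level in each cell and fewer cells that express the gene cannot be told apart.

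**Figure D3:**
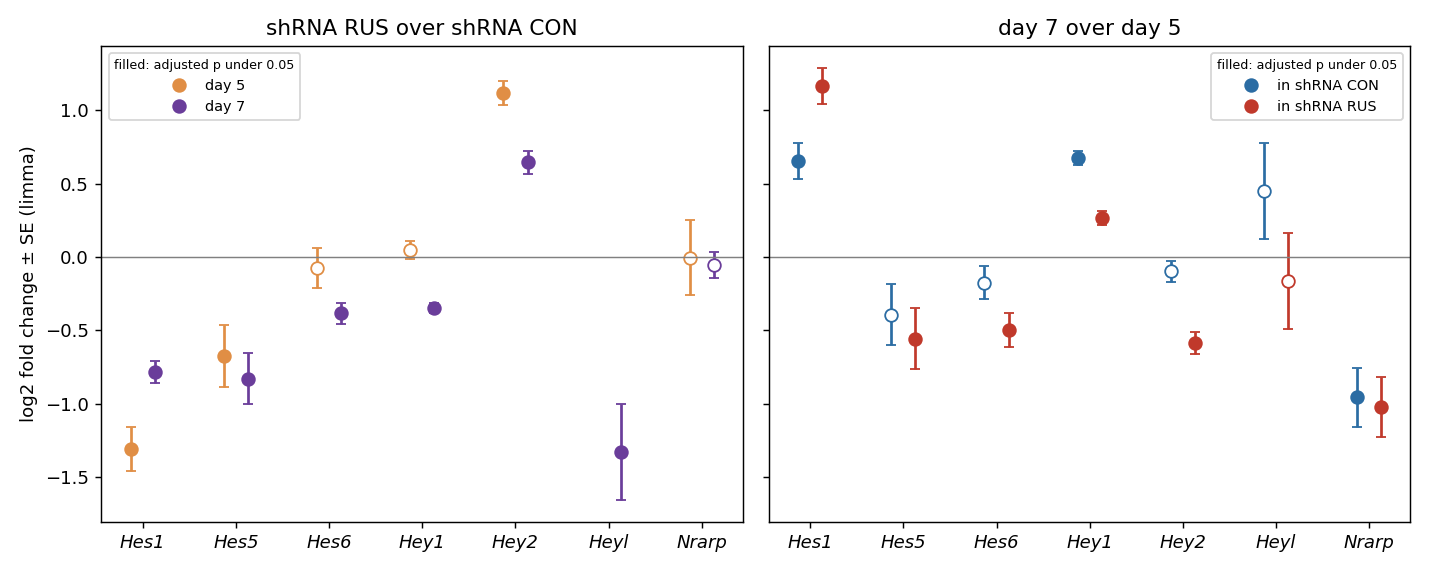
Log2 ratios of the 7 genes with their SE from limma, shRNA RUS over shRNA CON on each day (left) and day 7 over day 5 under each shRNA (right). Filled points have an adjusted p under 0.05 and open points do not, and no value is drawn for Heyl on day 5, where it was not tested; Hey2 alone is filled above 0 in the left panel, and Nrarp moves only in the right panel.

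The control cultures give the course of these genes with the scrambled shRNA. Between day 5 and day 7 in shRNA CON, Hes1 rose from 16.3 ± 3.1 to 25.4 ± 2.2 scaled TPM (log2 ratio 0.65, SE 0.12, adjusted p = 3.89e-04 by limma) and Hey1 from 43.4 ± 1.7 to 69.3 ± 2.2 (0.67, SE 0.047, adjusted p = 1.02e-08 by limma). Nrarp fell from 11.4 ± 3.1 to 5.66 ± 0.45 (-0.96, SE 0.20, adjusted p = 0.00105 by limma). These 2 rises and 1 fall among 7 members stand beside 26.9% of all 23789 genes called higher and 21.6% called lower. Hes5 (-0.39, adjusted p = 0.134 by limma), Hes6 (-0.17), Hey2 (-0.097) and Heyl (0.45) did not pass the test. The days were deposited in separate tables, so the day and anything else that differed between the tables cannot be told apart.

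In shRNA RUS, 6 members were called between the days. Hes1 rose from 6.47 ± 0.96 to 14.6 ± 1.1 scaled TPM (1.17, SE 0.12, adjusted p = 6.67e-07 by limma). Hey1 rose from 44.9 ± 2.7 to 53.9 ± 1.5 (0.27, SE 0.047, adjusted p = 1.28e-04 by limma). Hey2 fell from 8.13 ± 0.60 to 5.38 ± 0.29 (-0.59, SE 0.074, adjusted p = 4.17e-06 by limma), and Nrarp fell from 11.4 ± 3.0 to 5.40 ± 0.44 (-1.02, SE 0.20, adjusted p = 4.25e-04 by limma). Hes6 (-0.49, adjusted p = 0.00140 by limma) and Hes5 (-0.56, adjusted p = 0.0290 by limma) were called lower as well, but not with TPM as deposited, where the values were -0.17 and -0.24 (adjusted p = 0.149 and 0.312 by limma). The Hes5 call was also lost without replicate 1 or 2 of shRNA RUS on day 5 (-0.54 and -0.37, adjusted p = 0.0591 and 0.110 by limma) and without replicate 1 or 3 on day 7 (both -0.47, adjusted p = 0.0865 and 0.0871 by limma). Here 2 members were called higher and 4 lower, and 35.0% and 25.8% of all genes were. With TPM as deposited, higher calls made up 71.4% in place of 55.5% of the calls between the days in shRNA CON and 76.9% in place of 57.5% in shRNA RUS.

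The difference of the shRNA effect between the days was tested as an interaction over the 16 libraries. For Hey1 it was -0.41 (SE 0.066, adjusted p = 3.34e-04 by limma), the step from no called difference on day 5 to a lower level on day 7. For Hey2 it was -0.49 (SE 0.10, adjusted p = 0.00252 by limma), as the rise was smaller on day 7. Both stayed past the threshold in all 26 other settings. Hes1 changed in the other direction, with 0.51 (SE 0.18, adjusted p = 0.0376 by limma), as its loss was smaller on day 7 on the log scale. That call was lost in 14 of 26 other settings, where the value ranged over 0.34 to 0.68 in all 26 and the adjusted p reached 0.179. The libraries whose omission ended it were replicates 2 and 4 of shRNA CON (0.53 and 0.39) and 3 and 4 of shRNA RUS (0.51 and 0.41) on day 5, and replicates 1, 2 and 4 of shRNA CON (0.46, 0.52 and 0.50) and 3 and 4 of shRNA RUS (0.47 and 0.50) on day 7. Hes6 gave -0.32 (adjusted p = 0.153 by limma), which became -0.45 (adjusted p = 0.00945 by limma) without replicate 4 of shRNA RUS on day 5. Hes5, Heyl and Nrarp were not called. The 1 higher and 2 lower calls compare with 15.2% and 14.6% of all genes, and higher calls were 51.1% of all interaction calls, or 73.5% with TPM as deposited.

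Ratios within a library are free of any scaling between libraries, and they show how the balance among the members moved. Hey2 amounted to 8.50% ± 0.30 of Hey1 in shRNA CON and to 18.1% ± 1.0 in shRNA RUS on day 5, and to 4.97% ± 0.26 and 9.99% ± 0.82 on day 7 (SD, n = 4). The lowest shRNA RUS library was above the highest control on each day. Hes6 exceeded its antagonist Hes1 by 5.19 ± 0.31 times in shRNA CON and by 12.3 ± 0.4 times in shRNA RUS on day 5, and by 2.92 ± 0.30 and 3.86 ± 0.24 times on day 7. Hey1 over Hes1 was 2.72 ± 0.38 against 7.02 ± 0.76 on day 5 and 2.74 ± 0.20 against 3.72 ± 0.31 on day 7, again without overlap. The ratio of Hes1 to Hes5 separated the days rather than the shRNAs on day 7. It was 1.67 ± 0.15 in shRNA CON against 1.08 ± 0.17 in shRNA RUS on day 5, and 3.48 ± 0.35 and 3.68 ± 0.92 on day 7, where the groups overlapped.

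In TPM as deposited, the 6 bHLH members summed to 152 ± 14 in the controls of day 5 and to 127 ± 12 in the shRNA RUS libraries of that day, and to 194 ± 9 and 147 ± 7 on day 7. These sums depend on the scaling. In scaled TPM, all 7 members summed to 148 to 195 in shRNA CON and 126 to 176 in shRNA RUS on day 5, with overlap. On day 7 the scaled sums were 179 to 194 and 135 to 146, so the rise between the days in shRNA RUS was not seen on that scale. Hes6 held the largest mean share of this pool, 53.3% ± 1.0 in shRNA CON against 54.6% ± 2.8 in shRNA RUS on day 5, and 41.1% ± 2.3 and 41.8% ± 1.4 on day 7. Hey1 held 27.8% ± 2.0 and 31.1% ± 2.7 on day 5 and 38.6% ± 1.8 and 40.2% ± 1.2 on day 7, where it exceeded Hes6 in replicate 4 of shRNA CON and in replicate 1 of shRNA RUS. Hes1 made up 10.3% ± 0.8 and 4.43% ± 0.10 of it on day 5 and 14.1% ± 0.8 and 10.9% ± 0.6 on day 7. Most of the transcripts in the pool were thus Hes6 and Hey1, and Hes1 and Hes5 together were a smaller part.

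**Figure D4:**
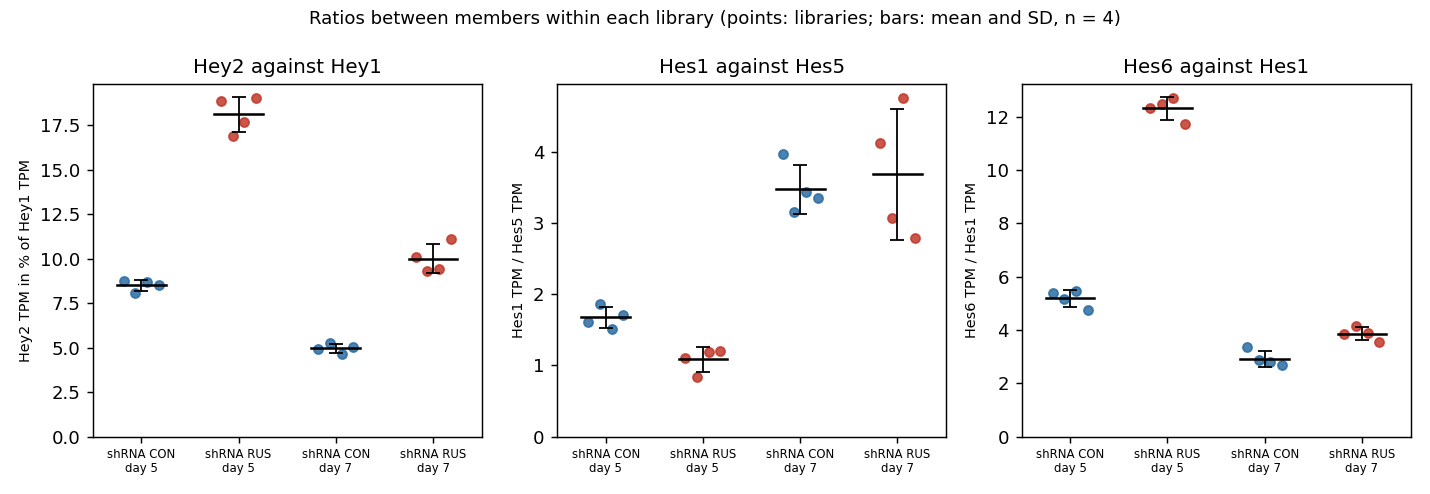
Ratios of TPM between members within each library, Hey2 in percent of Hey1 (left), Hes1 over Hes5 (middle) and Hes6 over Hes1 (right). Points are libraries, bars means and whiskers SD (n = 4), on axes starting at 0; Hey2 in percent of Hey1 is higher in shRNA RUS (red) on both days, and the ratio of Hes6 to Hes1 reaches 12.3 in shRNA RUS on day 5.

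Of the 4 receptors, 3 were called lower in shRNA RUS on day 5 and 2 higher on day 7. Of all genes tested, 17.9% were called lower on day 5 and 23.4% higher on day 7. Notch1 averaged 47.8 ± 5.3 scaled TPM in shRNA CON against 32.0 ± 3.2 in shRNA RUS on day 5 (log2 ratio -0.58, SE 0.095, adjusted p = 0.00164 by limma), and 36.4 ± 1.9 and 49.1 ± 4.0 on day 7 (0.45, SE 0.066, adjusted p = 3.93e-04 by limma). Notch2 was lower on day 5 (-0.45, adjusted p = 0.0118 by limma) and higher on day 7, with 36.5 ± 1.5 against 73.8 ± 5.7 scaled TPM (1.03, adjusted p = 1.35e-06 by limma). Both reversals were called as interactions, 1.01 for Notch1 (SE 0.12, adjusted p = 2.96e-05 by limma) and 1.46 for Notch2 (SE 0.13, adjusted p = 3.24e-06 by limma). Notch3 was lower on day 5 (-0.44, adjusted p = 0.00816 by limma) and gave -0.19 on day 7 (adjusted p = 0.134 by limma). Notch4, near 1 scaled TPM, did not pass the test on either day.

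Among the ligands, Dll1, the Delta ligand of cortical progenitors, was lower in shRNA RUS on both days, at 14.6 ± 1.8 against 19.4 ± 1.3 scaled TPM on day 5 (-0.41, adjusted p = 0.00978 by limma) and 13.4 ± 0.57 against 16.9 ± 0.91 on day 7 (-0.32, adjusted p = 9.68e-04 by limma). The nonclassical ligands Dll3 (-0.77) and Dlk1 (-0.82) were lower on day 7, while Dll4 rose from 0.55 ± 0.14 to 1.4 ± 0.38 scaled TPM (1.22, adjusted p = 0.00137 by limma) and Dlk2 rose by 0.50. Jag1 and Jag2 did not pass the test on either day. In all, 1 of 7 ligands was called lower on day 5, and 2 were called higher and 3 lower on day 7. Over all genes, 17.9% were called lower on day 5, and 23.4% higher and 25.8% lower on day 7.

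Among the genes of the nuclear partners, more were called higher on day 7 than on day 5. Rbpj itself was slightly higher on day 7, at 0.22 (SE 0.035, adjusted p = 6.25e-04 by limma). Its day 5 value of 0.20 (SE 0.065, adjusted p = 0.0436 by limma) was lost with TPM as deposited (0.039, adjusted p = 0.766 by limma), where the means were 41.3 in shRNA CON against 42.4 TPM, and the groups overlapped on both scales. Other settings lost this call too, among them quantile normalization (0.15, adjusted p = 0.153 by limma) and a replicate block (adjusted p = 0.132 by limma). So did the omission of replicate 2, 3 or 4 of shRNA CON or of replicate 1, 2 or 4 of shRNA RUS. Maml1, a Mastermind coactivator, rose from 6.58 ± 0.18 to 10.6 ± 0.38 scaled TPM on day 5 (0.68, adjusted p = 8.49e-05 by limma) and from 6.56 ± 0.35 to 17.9 ± 1.1 on day 7 (1.45, adjusted p = 2.63e-07 by limma). Of the 7 genes of Rbpj and its coactivators, 2 passed the test as higher on day 5, Rbpj among them, and 6 did so on day 7, where the exception was Snw1 (-0.096, adjusted p = 0.0827 by limma). Of the 9 genes for receptor cleavage, 5 were called higher and 1 lower on day 5, and 7 higher and 1 lower on day 7. The corepressors of Rbpj and Hes proteins, 14 genes, gave 2 higher and 2 lower calls on day 5 and 8 and 3 on day 7, and the 18 modifiers of receptors and ligands gave 7 and 5, and 11 and 5. Beside these counts stand 14.8% of all genes called higher and 17.9% lower on day 5, and 23.4% and 25.8% on day 7.

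Proneural genes are the textbook targets of repression by Hes1. Neurog2 and Neurod1, both with group means under 1 scaled TPM, were called lower on day 7 (-1.30 and -1.18, adjusted p = 0.00315 and 0.00229 by limma). Neither was called on day 5 (-0.17 and -0.31, adjusted p = 0.652 and 0.430 by limma). Among further Hes-related genes, Bhlhe40 was lower on day 5 and higher on day 7 (-0.33 and 0.39, interaction 0.71, adjusted p = 4.63e-05 by limma), Bhlhe41 was higher on day 7 (0.53), and Hes7, the oscillator of somite formation, stood at 0.374 ± 0.17 against 0.819 ± 0.15 scaled TPM on day 5 (1.00, adjusted p = 0.0221 by limma). The Id genes, whose proteins bind the E protein partners of proneural factors, gave 2 higher calls and 1 lower among 4 on day 5 and 3 lower calls on day 7. Of the 3 E proteins, 1 was called lower on day 5 and 3 higher on day 7. The shares over all genes were 14.8% higher and 17.9% lower on day 5, and 23.4% and 25.8% on day 7.

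**Figure D5:**
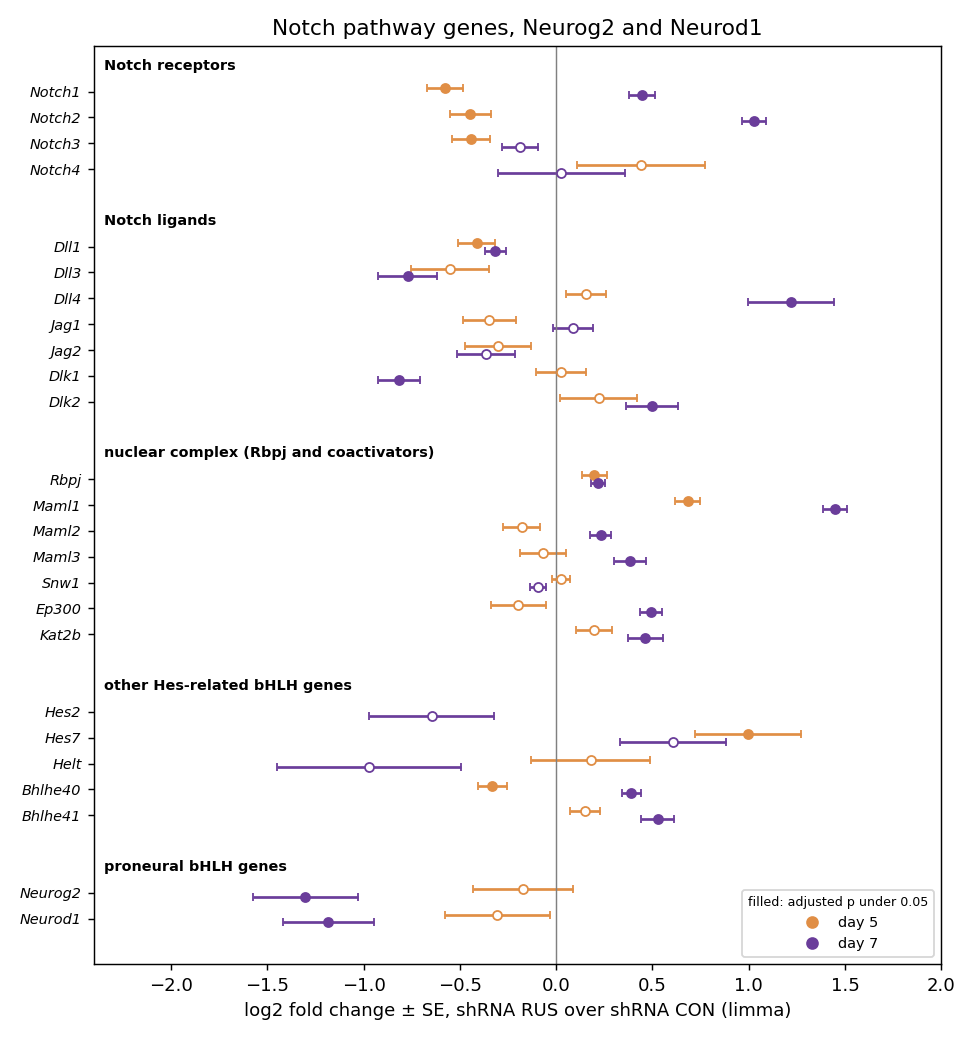
Log2 ratios with SE, shRNA RUS over shRNA CON, of the tested Notch receptors, ligands, nuclear partners, further Hes-related genes, Neurog2 and Neurod1 on day 5 (orange) and day 7 (purple). Filled points have a limma adjusted p under 0.05; Notch1 and Notch2 lie left of 0 on day 5 and right of 0 on day 7, and Maml1 lies furthest right on day 7.

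Lists of cell type markers were examined as well. Among all genes tested, 14.8% were called higher and 17.9% lower on day 5, and 23.4% and 25.8% on day 7. All 6 proliferation markers were called lower in shRNA RUS on both days, with summed levels of 650 to 678 scaled TPM in the day 5 controls and 368 to 412 in the shRNA RUS libraries, and 674 to 684 and 267 to 301 on day 7. Of the 5 markers of the oligodendrocyte lineage, a lineage that expresses Hes5, 4 were called lower on day 5 and 5 on day 7, with sums of 230 to 314 against 149 to 240 and of 307 to 356 against 209 to 231. Of the 6 microglia markers, 2 were called lower on day 5, where the sums overlapped (77.7 to 82.8 against 66.7 to 84.7 scaled TPM), and all 6 on day 7 (181 to 193 against 76.2 to 97.6). Of the 8 NSC and radial glia markers, 4 were called higher and 1 lower on day 5 and 3 higher and 3 lower on day 7, with sums of 12592 to 14736 against 17878 to 21369 scaled TPM (shRNA CON against shRNA RUS) on day 5 and 6918 to 7172 against 7147 to 7808 on day 7. The sums were carried by Vim and Fabp7, which were higher in shRNA RUS on day 5, at 11465 to 14709 against 8173 to 9919 and 4723 to 5389 against 3111 to 4099, while Nes, the intermediate filament gene of NSCs, was lower there, at 29.3 to 34.7 against 55.7 to 62.4. Of the 3 markers of intermediate progenitors, 2 were called lower on each day. The 8 neuron markers gave 2 higher and 2 lower calls on day 5 and 4 and 2 on day 7, and the 6 astrocyte markers 1 and 1, and 2 and 1. Summed astrocyte markers were 3209 to 3337 in shRNA CON against 4181 to 4321 scaled TPM in shRNA RUS on day 5. On day 7 they were 1602 to 1651 against 1719 to 1933. Gfap was higher in shRNA RUS on day 5, at 1798 to 1957 against 2583 to 2921, and Slc1a2 was lower, at 75.2 to 93.0 against 48.4 to 70.5. The part of these cell types in the levels of the members was not tested.

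Vascular cells express Hey genes too. The endothelial genes Cdh5, Cldn5 and Tie1 were at or near 0 in all libraries, with at most 0.147 scaled TPM, and the summed endothelial markers were 6.90 to 7.60 in shRNA CON and 4.41 to 5.40 in shRNA RUS on day 5 and 7.10 to 7.82 against 3.89 to 4.54 on day 7, carried by Kdr. Of the 9 endothelial markers, 5 could be tested on day 5, and 1 of them was called lower, while 1 was called higher and 1 lower on day 7. The summed mural cell markers were 662 to 790 against 437 to 500 scaled TPM on day 5 and 405 to 457 against 347 to 446 on day 7, carried by Acta2 and Tagln, whereas Abcc9, Kcnj8 and Myh11 reached at most 0.397. Of the mural markers tested, 1 was called higher and 2 lower on day 5, and 2 higher and 1 lower on day 7. For all genes these shares were 14.8% higher and 17.9% lower on day 5, and 23.4% and 25.8% on day 7. Pdgfrb, a receptor of pericytes, was 14.1 to 14.4 against 14.6 to 20.3 scaled TPM on day 5 and 10.1 to 11.4 against 25.01 to 27.61 on day 7. The part of vascular cells in the Hey levels was not tested.

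Finally, the genes whose course was most like that of each member were listed, by the root mean square difference of log2 levels over the 16 libraries after centring each gene, among the 15898 genes that averaged 1 TPM or more. For Hes1 the nearest gene was the Wnt ligand Wnt9a (0.143), followed by Syt5 (0.206). For Hes6 it was Pgp (0.0493), and for Hey1 it was the protein disulfide isomerase Txndc5 (0.0676), followed by Vhl and Hbegf (both 0.0762 to 0.0763). The course of Hey2 was nearest to that of Cnp (0.125), Cmtm5 (0.133) and Iba57 (0.150), and the course of Nrarp to Abhd8 (0.175), Pdlim4 (0.179) and the stress gene Gadd45g (0.185). Hes5 had no close partner, with Tsfm at 0.220 as the nearest. Among the 6 members compared, without Heyl, which averaged less than 1 TPM, none was the nearest neighbour of another: the closest other member ranked 400 for Hes5 (Hes6), 1582 for Nrarp (Hes6), 2431 for Hes1 (Hey1), 5483 for Hes6 (Hes5), 7388 for Hey2 (Hes6) and 7944 for Hey1 (Hes6). A first rank is rare for so few members among 15898 genes, and the ranks were not compared with those of random genes.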

How the data were processed

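PolyA RNA was read by the authors on a NextSeq 500 instrument. They used STAR for alignment and RSEM for quantification, with mm10 and a GRCm38 transcript table as reference. Per the labels and file headers, they deposited TPM per gene and library, in 1 table per day. The tables also hold columns of the authors' own DESeq2 comparison, which were not used. Read counts and strandedness are not given in the sources used here, so no counting interval could be made. All 16 libraries had a column, and the fit over both days used the 55365 lines whose symbol and place matched in both tables, which left out 106.

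Each library had its own factor: for genes at 1 TPM or more in every library of the fit, the ratio to the gene's geometric mean was taken, and the median of these ratios was the factor. Values were analysed as log2(TPM / factor + 0.1). Genes averaging 0.1 TPM or more were tested with limma (version 3.58.1, lmFit, eBayes with trend, two-sided) and Benjamini-Hochberg adjustment at 0.05. A fold change on this scale understates the change of low genes. Each day was fitted on its 8 libraries, and contrasts between days and the interaction on all 16. Alternatives were other pseudocounts, filters, scalings, weights, a replicate block and leaving out each library. Genes named in the text are the 7 members, genes of pathway and marker lists, the nearest 3 genes of each member and the target. Members, lists and motifs were chosen with earlier results of these data known. Gene positions are those of GENCODE on GRCm38, promoter windows those of RefSeq. 1 gene of the lists is not reported here.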

Additional observations from a re-analysis of the deposited data

Results flagged for a closer look

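The difference between the shRNAs changed between the days for 3 members in the interaction test over 16 libraries (limma, adjusted over all genes): Hey1 with -0.41, Hey2 with -0.49 and Hes1 with 0.51 on the log2 scale, of which the Hes1 value is the one that was lost in 14 of 26 other settings. Among the 28 groups of 4 libraries examined, 2 had a library whose gap to the next, as a share of the range of the group, was above Dixon's critical value at the 95% level, a rule that chance alone passes in about 1 group in 20. In shRNA RUS on day 5 the highest Hey2 library, replicate 1 with 9.02 scaled TPM, was separated from the next by 0.874 of the range of the group, but by 0.317 of it in TPM as deposited. In the same library Heyl was 0.142 scaled TPM, separated by 0.909 of the range on both scales.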

How the results depend on the processing

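Of 785 values of members under other settings, 736 kept their direction and side of the threshold, 29 lost the call, 3 gained it and 17 changed sign, and all 116 alternative counts of called genes were within 1.5 times the reported ones. The sign changes concern values near 0 that were not called. With TPM as deposited these were Hey1 on day 5 (-0.11), Hey2 between the days in shRNA CON (0.050), and the interactions of Nrarp (0.11) and Hes5 (0.0036). Quantile normalization turned Nrarp on day 5 (0.096) and day 7 (0.024), and array weights turned Hes6 (0.0068) and Nrarp (0.054) on day 5. Leaving out 1 library at a time gave ranges that include 0 for Hes6 (-0.15 to 0.057) and Nrarp (-0.21 to 0.21) on day 5, for Heyl between the days in shRNA RUS (-0.28 to 0.095) and for the interactions of Nrarp (-0.27 to 0.14) and Hes5 (-0.32 to 0.019). The 3 gained calls were the Hes6 interaction with array weights (-0.41) and without replicate 4 of shRNA RUS on day 5 (-0.45), and Hey2 between the days in shRNA CON with quantile normalization (-0.28). The labels do not say that replicate numbers pair the samples. Deviations of libraries with the same number correlated at -0.10 to 0.0020 on day 5 and at -0.0038 to 0.033 on day 7. These lay within the range of those with different numbers except replicate 4 on day 5 (-0.10), which lay below it. Too few such pairs exist to decide whether the samples were paired. With the number as a replicate block, 4966 in place of 7383 genes were called on day 5 and 11225 in place of 12108 on day 7, and the calls of Hes5 on day 5 (-0.67, limma adjusted p = 0.0943) and of the Hes1 interaction (0.51, limma adjusted p = 0.0595) were lost. The cause was not tested. Depth is unknown, so the limit of detection for Heyl could not be set.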
